A study of Arabidopsis thaliana with 6 samples.

Results

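The C-repeat binding factor (CBF/DREB1) genes were followed through auxin-induced culture of Arabidopsis thaliana embryos. The group held 5 genes, CBF1 (DREB1B, AT4G25490), CBF2 (AT4G25470), CBF3 (AT4G25480), DDF1 (AT1G12610) and DDF2 (AT1G63030), chosen by their gene codes among the 1880 rows of a quantitative RT-PCR screen of transcription factor (TF) genes. All 5 gave a threshold cycle (Ct) in each of the 6 groups, so that none was lost to a filter. The groups were tanmei at 0, 5 and 10 d and Col-0 at 0, 5 and 10 d. At 0 d the material was the freshly dissected immature zygotic embryo at the late cotyledonary stage, taken 10 to 12 days after pollination from plants kept at 22 °C under 16 h of light and 8 h of dark. At 5 d and 10 d such embryos had been on solid medium with 5 µM 2,4-D, a synthetic auxin. The cultures were also kept at 22 °C under 16 h of light and 8 h of dark. Col-0 is the wild-type accession and forms somatic embryos on this medium, whereas tanmei carries a mutation (tan1-2) in a gene for a WD-repeat protein and forms none. Each group was represented by 1 value per gene, which the file header describes as the average of 3 replicates. The single replicates were not analysed here, which leaves every value without SD, interval or test, and a difference is described only by its size.

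CBF/DREB1 proteins are AP2/EREBP transcription factors that bind the C-repeat/dehydration-responsive element in promoters. In the cold, CBF1, CBF2 and CBF3 transcripts accumulate quickly, driven in part by ICE1 and CAMTA factors, and the proteins then switch on cold-regulated genes that raise freezing tolerance. DDF1 and DDF2 are close relatives whose overproduction delays flowering and dwarfs the plant by lowering active gibberellin, and DDF1 is known from the response to high salt. None of the groups was labelled as cold-treated. CBF2, CBF3 and CBF1 lie next to each other in this order, with 0 protein-coding genes annotated between neighbours. Their coding sequences are much alike, and whether each primer pair reads only its own gene was not tested here.

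A Ct lower by 1 stands for about 2-fold more transcript if each cycle doubles the product. The level of a gene is given here on the log2 scale as the median Ct of its block, the matrix falling into 5 blocks of equal length, minus its own Ct, so that a positive level is above the block median. All 5 genes lie in the same block, and for them the scale subtracts the same number in a given group. Levels are compared only within a gene, since primer pairs differ in efficiency. In these mixed tissues, fewer cells that express a gene and less transcript per cell cannot be told apart.

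Most of the 5 genes were lower in culture than in the explant (0 d). In tanmei at 5 d, CBF1, CBF2, CBF3 and DDF1 were more than 2-fold below the explant, as were 39.4% of all rows, and DDF2 was not. In Col-0 at 5 d, all 5 were more than 2-fold below the explant (38% of all rows), and 4 of them, all but CBF3, were more than 10-fold below (10.1% of all rows). The genes then parted. CBF1, CBF2 and CBF3 were again more than 2-fold higher at 10 d than at 5 d in Col-0, and DDF1 and DDF2 were not. At 10 d CBF3 was 16.3-fold lower and DDF2 68.9-fold higher in tanmei than in Col-0. Without the block median these differences were 30.6-fold and 36.7-fold. The DDF2 value in Col-0 lies late in the run (Ct 36.0), and the identity of its row is less well supported.

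**Figure D1:**
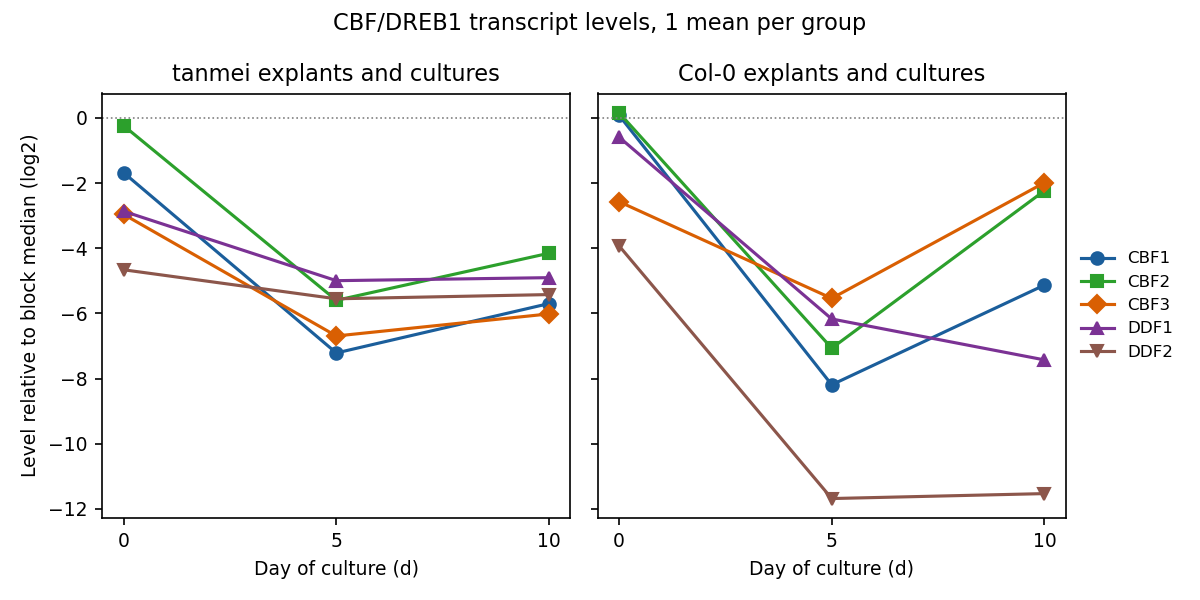
Level of each gene relative to the block median (log2, y axis) at 0, 5 and 10 d of culture (x axis), tanmei in the left panel and Col-0 in the right. Each point is 1 mean without error, and heights of different genes are not comparable. In Col-0 the lines of CBF1, CBF2 and CBF3 turn up after 5 d, while those of DDF1 and DDF2 stay down.

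CBF1, one of the 3 main cold-induced activators, had Ct values of 26.8, 32.4 and 31.0 at 0, 5 and 10 d in tanmei, and of 26.3, 33.5 and 29.6 in Col-0. The corresponding levels were -1.68, -7.21 and -5.70 in tanmei and 0.08, -8.19 and -5.13 in Col-0. The explants of both genotypes were therefore the groups with the most CBF1 transcript and the 5 d cultures those with the least. CBF1 was 46.2-fold lower at 5 d than at 0 d in tanmei and 308-fold lower in Col-0, where it took rank 17 from the lowest of 1822 rows compared. At 10 d it was still 16.2-fold lower than in the explant in tanmei and 37.0-fold lower in Col-0. Between genotypes, CBF1 differed by less than 2-fold at 5 d and at 10 d, with log2 differences (tanmei minus Col-0) of 0.98 and -0.57. In the Ct as deposited, without the block median, they were 1.06 and -1.47, both past 2-fold.

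CBF2, which also acts on the expression of CBF1 and CBF3, had Ct values of 25.4, 30.8 and 29.5 in tanmei and of 26.2, 32.3 and 26.7 in Col-0. The levels were -0.24, -5.60 and -4.15 in tanmei and 0.15, -7.07 and -2.24 in Col-0. The order of the 6 groups was the same as for CBF1, from the Col-0 explant through the tanmei explant, Col-0 at 10 d, tanmei at 10 d and tanmei at 5 d to Col-0 at 5 d, and only the explants lay within 2-fold of each other. CBF2 was 41.0-fold lower at 5 d than at 0 d in tanmei and 149-fold lower in Col-0. It made the largest return of the 5 genes, being 28.5-fold higher at 10 d than at 5 d in Col-0 (rank 15 from the highest of 1815 rows), against 2.72-fold in tanmei. CBF2 was 2.77-fold higher in tanmei than in Col-0 at 5 d and 3.78-fold lower at 10 d.

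CBF3, the third of the cluster, followed another course. Its Ct values were 28.1, 31.9 and 31.4 in tanmei and 28.9, 30.8 and 26.4 in Col-0, and its levels -2.96, -6.69 and -6.02 in tanmei and -2.57, -5.54 and -1.99 in Col-0. It had the narrowest range of the 5 genes over the groups, 4.70 on the log2 scale, against 6.83 to 8.27 for the others. The highest of its 6 levels was that of Col-0 at 10 d and not that of an explant. CBF3 was 13.3-fold lower at 5 d than at 0 d in tanmei and 7.82-fold lower in Col-0. At 10 d it was 8.30-fold lower than in the explant in tanmei, whereas in Col-0 it was back within 2-fold of the explant, with a log2 change of 0.58 relative to the block median. In the Ct as deposited the Col-0 change was 2.48, or 5.58-fold above the explant, so that whether CBF3 at 10 d exceeded the Col-0 explant by more than 2-fold depends on the scale.

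DDF1, the salt-responsive relative, had Ct values of 28.0, 30.2 and 30.2 in tanmei and of 26.9, 31.4 and 31.9 in Col-0. The levels were -2.87, -5.0 and -4.90 in tanmei and -0.59, -6.17 and -7.43 in Col-0. The 4 cultures were below both explants, and the Col-0 cultures were the lowest of all. DDF1 was 4.37-fold lower at 5 d than at 0 d in tanmei and 47.8-fold lower in Col-0. At 10 d it was 4.10-fold lower than in the explant in tanmei and 114-fold lower in Col-0 (rank 29 from the lowest of 1828 rows). DDF1 was thus 4.84-fold lower in tanmei than in Col-0 at 0 d, but 2.26-fold higher at 5 d and 5.75-fold higher at 10 d.

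DDF2, its paralogue, showed the widest gap between the genotypes. Its Ct values were 29.8, 30.7 and 30.8 in tanmei and 30.3, 36.9 and 36.0 in Col-0. The levels were -4.66, -5.55 and -5.42 in tanmei and -3.93, -11.68 and -11.53 in Col-0, so that only the Col-0 cultures stood apart. In tanmei DDF2 stayed within 2-fold of the explant at both times, with log2 changes of -0.89 and -0.76, whereas in Col-0 it was 216-fold lower at 5 d and 194-fold lower at 10 d. With every Ct of 35 or more set to 35, these Col-0 changes were -5.81 and -6.64 on the log2 scale, against -7.75 and -7.60 without that limit. Relative to Col-0, DDF2 in tanmei was 69.9-fold higher at 5 d (rank 16 from the highest of 1807 rows) and 68.9-fold higher at 10 d (rank 21 of 1824). Both Col-0 culture values lie late in the run, where few template copies remain. With the same limit of 35, the genotype differences were 4.19 and 5.15 on the log2 scale at 5 d and 10 d. The decimals of the Col-0 means at 10 d for DDF1 and DDF2 are those that a mean of 2 values would have, a pattern found in 1.57% to 3.61% of the means of a group, so a replicate may be missing there.

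Set against all rows, a fall of more than 2-fold in culture was seen in a minority of rows, and one of more than 10-fold in fewer. The direction of all rows in Col-0 depended on the scale. In the Ct as deposited, 28.1% of rows were lower and 35.7% higher past 2-fold at 5 d in Col-0, and 49% and 25.4% in tanmei. The shares that follow are relative to the block median. At 5 d, 4 of 5 genes in tanmei and 5 of 5 in Col-0 were more than 2-fold lower than at 0 d, where 39.4% and 38% of all compared rows were. The median log2 change of the 5 genes was -3.73 in tanmei and -7.22 in Col-0, beside -0.44 and -0.37 for all rows. Without DDF2, whose Col-0 culture values lie late in the run, the median of the other 4 genes was -4.54 in tanmei and -6.40 in Col-0. The 2 genotypes were thus closer without DDF2. Falls of more than 10-fold were seen for 3 of 5 genes in tanmei and 4 of 5 in Col-0, against 11.1% and 10.1% of all rows. Among the AP2/EREBP rows such falls were more common, at 15.3% in tanmei and 20.4% in Col-0. At 10 d, 4 of 5 genes were more than 2-fold below the explant in tanmei and 4 of 5 in Col-0, where 37.4% and 41.1% of all rows were. For the AP2/EREBP rows, 144 compared in tanmei and 142 in Col-0, the median log2 change from 0 d to 5 d was -0.55 in tanmei and -0.66 in Col-0, and in the Ct as deposited the Col-0 median turned to 0.41.

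At 10 d, 2 of 5 genes (CBF1 and CBF2) were more than 2-fold higher than at 5 d in tanmei and 3 of 5 (CBF1, CBF2 and CBF3) in Col-0, where 20% and 17.4% of all rows were. Gains of more than 10-fold were seen for CBF2 and CBF3 in Col-0, against 2.2% of all rows, and for none of the 5 genes in tanmei, against 2.83%. DDF1 was the 1 gene more than 2-fold lower at 10 d than at 5 d in Col-0 (log2 change -1.26), a step taken by 18.1% of all rows, and in the Ct as deposited this change was only -0.42.

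**Figure D2:**
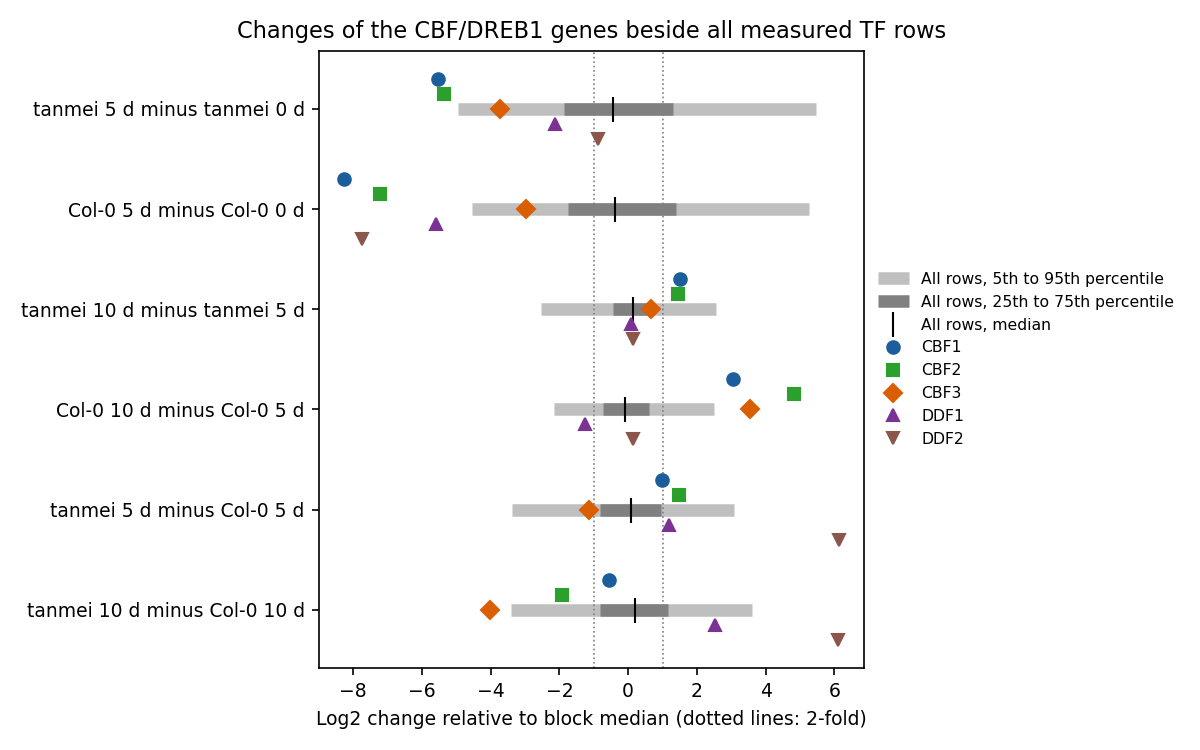
Log2 change of each gene relative to the block median (x axis, symbols) for 6 comparisons (y axis), over bars for the 5th to 95th and 25th to 75th percentile of all rows with a tick at their median. At 5 d CBF1 and CBF2 lie below the 5th percentile in both genotypes, and in the genotype comparisons DDF2 lies far above the 95th percentile at 5 d and 10 d.

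Between genotypes the genes differed in both directions. At 0 d, 2 of 5 genes, CBF1 and DDF1, were more than 2-fold lower in tanmei than in Col-0 (log2 differences -1.76 and -2.28), as were 22% of all rows. At 5 d, 3 of 5 genes (CBF2, DDF1 and DDF2) were more than 2-fold higher in tanmei, beside 24.1% of all rows, and CBF3 was lower (log2 difference -1.15), beside 22.1%. The CBF3 difference fell short of 2-fold when the median over all rows was the reference (-0.94), and likewise with the block median over rows with a Ct in every group. At 10 d, DDF1 and DDF2 were more than 2-fold higher in tanmei, beside 28.7% of all rows, and CBF2 and CBF3 were lower, beside 22.4%. CBF3 at 10 d, with a log2 difference of -4.03, took rank 61 from the lowest of 1824 rows. The 5 d and 10 d comparisons between genotypes use different groups, but each shares its groups with the changes over time given above.

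The change over time was next set against that of the other genotype, as the tanmei change minus the Col-0 change. From 0 d to 5 d this difference was positive by more than 2-fold for 4 of 5 genes, where 24.8% of all rows were, that is, the 4 genes were reduced less in tanmei. It was 2.74 for CBF1, 1.87 for CBF2, 3.45 for DDF1 and 6.86 for DDF2 on the log2 scale, and -0.76 for CBF3. Without the block median the value of CBF2 was 0.73, within 2-fold, and that of CBF3 -1.89, past 2-fold in the other direction, where 13.2% of all rows were positive and 52.1% negative. From 0 d to 10 d the difference was positive past 2-fold for CBF1 (1.20), DDF1 (4.80) and DDF2 (6.84), beside 30.3% of all rows, and negative past 2-fold for CBF2 (-1.52) and CBF3 (-3.64), beside 27.1%. Without the block median, 12.1% of all rows were positive and 61.8% negative past 2-fold for this difference, so that the negative sign was then the common one, and CBF1 turned to -0.93. From 5 d to 10 d it was -1.54 for CBF1, -3.39 for CBF2 and -2.87 for CBF3, a sign past 2-fold that 20.5% of all rows had, against 1.35 for DDF1, beside 23.2%, and -0.02 for DDF2. The 3 cold-induced genes of the cluster thus regained less transcript in tanmei between 5 d and 10 d, on each scale tried, while the value of DDF1 was 0.36 in the Ct as deposited.

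The scale itself moved between groups. The median Ct of the block that holds the 5 genes was 25.1, 25.2 and 25.3 at 0, 5 and 10 d in tanmei and 26.3, 25.3 and 24.4 in Col-0. Within tanmei the changes were therefore nearly the same on both scales, whereas in Col-0 the block median came earlier by 1.06 cycles at 5 d and by 1.90 cycles at 10 d than at 0 d, which sets the changes lower than in the Ct as deposited by these amounts. The falls of all 5 genes in Col-0 at 5 d stayed beyond 2-fold in the Ct as deposited, at -7.20 for CBF1, -6.16 for CBF2, -1.90 for CBF3, -4.51 for DDF1 and -6.69 for DDF2. At 10 d CBF2 did not, with -0.49 in place of -2.39. Between the explants the block median differed by 1.21 cycles. In the Ct as deposited CBF1 was then 1.46-fold lower in tanmei at 0 d, DDF1 2.09-fold lower, and CBF2, CBF3 and DDF2 turned to log2 differences of 0.82, 0.82 and 0.48 in favour of tanmei, each within 2-fold. The genotype differences of DDF2 in culture were 6.21 at 5 d and 5.20 at 10 d without the block median, and that of CBF3 at 10 d was -4.93. The ubiquitin reference gene of the screen was not used here.

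**Figure D3:**
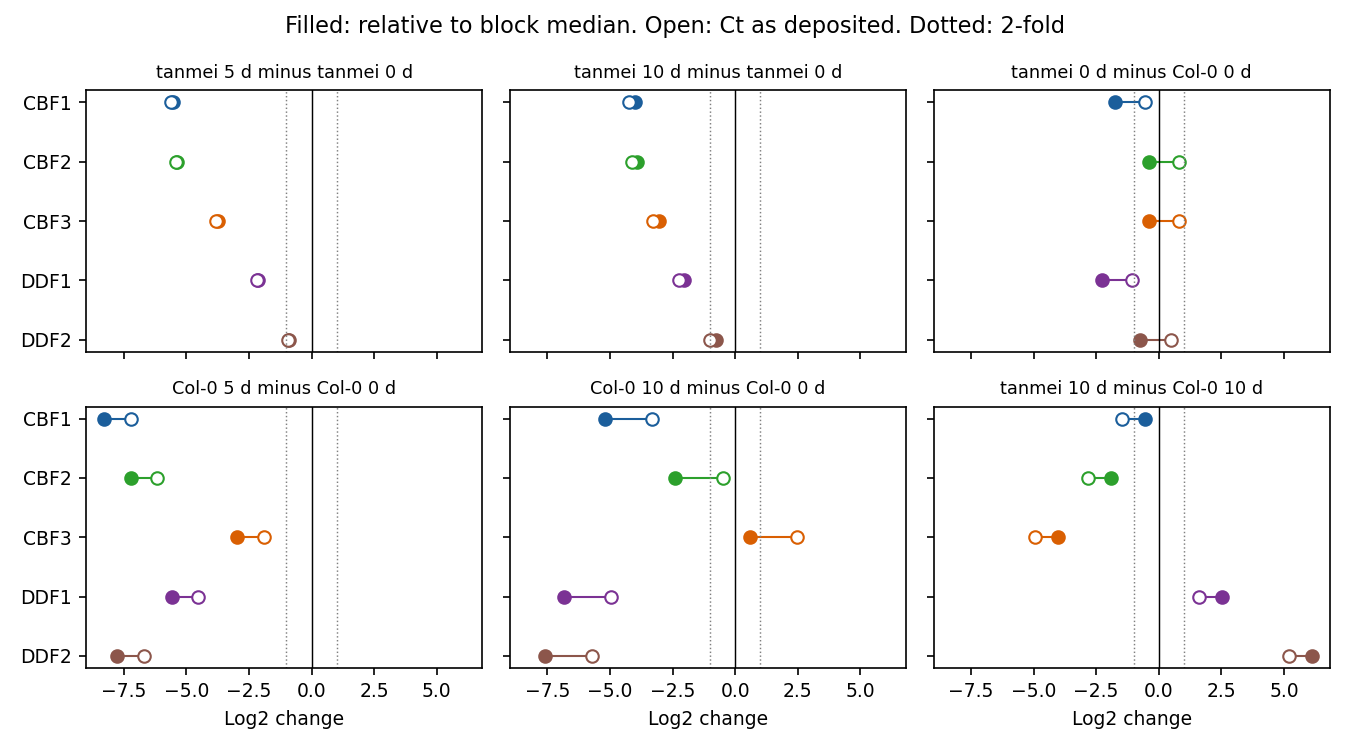
Log2 change (x axis) of each gene (y axis) in 6 comparisons, as filled points relative to the block median and as open points in the Ct as deposited. The pairs nearly coincide within tanmei, are 1.06 and 1.90 apart within Col-0, and straddle 0 for CBF2, CBF3 and DDF2 between the explants.

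Among themselves, CBF1 and CBF2 had the most similar profiles across groups. After each profile was centred on its own mean, they were apart by 0.83 (root mean square over the 6 groups). CBF1 and DDF1 differed by 1.66 and DDF1 and DDF2 by 1.84 on this measure. CBF3 was nearest to CBF2 (1.56) and farthest from DDF2, at 3.81, the widest of the 10 pairs. The 6 groups are the same for each pair, so these figures describe the profiles only.

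Of 1610 other rows with a Ct in all groups, the nearest profile to CBF1 was that of AT1G75490, another AP2/EREBP gene, 0.52 apart on the same measure, followed by the rows coded HB52 (0.82) and JAZ10 (0.82). CBF2 was nearest to AT3G19500, labelled bHLH (0.82), and then to JAZ10 (0.94) and LBD31 (0.95). The nearest rows to CBF3 were MGP (0.63), NAC076 (0.63) and AT2G38250 (0.64), and those to DDF1 were AT5G65130, also AP2/EREBP (0.58), HB33 (0.63) and NAC019 (0.64). DDF2 had no comparably near row. Its nearest, ERF13, an AP2/EREBP gene, stood at 1.20, and AT5G27810 and AT3G62850 at 1.41 and 1.45. Of these 14 rows, 3 bear the AP2/EREBP label.

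How far a code names its row was checked against the levels tabulated per gene in the study's supplement, allowing 1 offset per block. The rows of CBF1, CBF2 and CBF3 each lay within 1 cycle (root mean square over the groups) of the profile tabulated under the same code, and no other row of the block did. DDF1 and DDF2 were not in that table. Of the tabulated AP2/EREBP codes within 10 rows of them, 8 of 8 around DDF1 and 5 of 7 around DDF2 met the same limit, so the identity of the DDF2 row is less well supported. The medians and counts over the 5 genes include the DDF2 row. Over the matrix, 57 of 71 AP2/EREBP codes met the limit, but only 14 of 661 other codes. Names of rows outside the family, HB52, JAZ10 and the like, are therefore given as the matrix has them and are not settled.

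CBF4 (AT5G51990), the drought- and abscisic-acid-responsive relative of the cluster, is 1 of the AP2/EREBP codes that did not meet the limit. The row with its code was less than 2-fold changed in tanmei at 5 d and 10 d, with log2 changes of -0.75 and -0.16, and had changes of -1.72 and -0.15 in Col-0. Of the 6 genes of the neighbouring DREB A-5 group, small AP2/EREBP proteins several of which act as repressors, 3 were more than 2-fold lower and 2 higher at 5 d than at 0 d in tanmei, where 39.4% of all rows were lower and 28.7% higher. In Col-0, 4 were lower and 2 higher, beside 38% and 28.9% of all rows, so that the counts of higher genes are near those shares. The 4 whose codes met the limit were RAP2.1, RAP2.9, RAP2.10 and DEAR1. The match was not unique for all of them. For RAP2.1, 7 rows of the block met the limit, its own included, and 1 other row was closer. For RAP2.10 and DEAR1, 2 rows met it, their own being the closest, and for RAP2.9 only its own did.

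RAP2.1, a repressor that CBF proteins are known to induce in the cold, had levels of 3.49, 0.38 and -0.58 at 0, 5 and 10 d in tanmei and of 3.99, -0.05 and -0.12 in Col-0. It was thus lower in culture than in the explant in both genotypes, with log2 changes at 5 d of -3.11 in tanmei and -4.04 in Col-0, and did not return at 10 d. RAP2.10 had levels of 2.49, -0.05 and 1.19 in tanmei and of 5.25, 0.59 and 0.61 in Col-0. RAP2.9 was the A-5 gene with the widest genotype difference at 5 d, with levels of 3.30, -4.49 and -1.91 in tanmei and of 4.72, 1.49 and -1.16 in Col-0. DEAR1, a repressor that can lower CBF expression, was higher at 5 d than in the explant in both genotypes. Its levels were -5.38, -3.75 and -1.75 in tanmei and -5.98, -3.38 and -3.47 in Col-0, higher in every culture than in the explant of the same genotype. Whether DEAR1 bears on the CBF genes in these cultures was not tested.

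**Figure D4:**
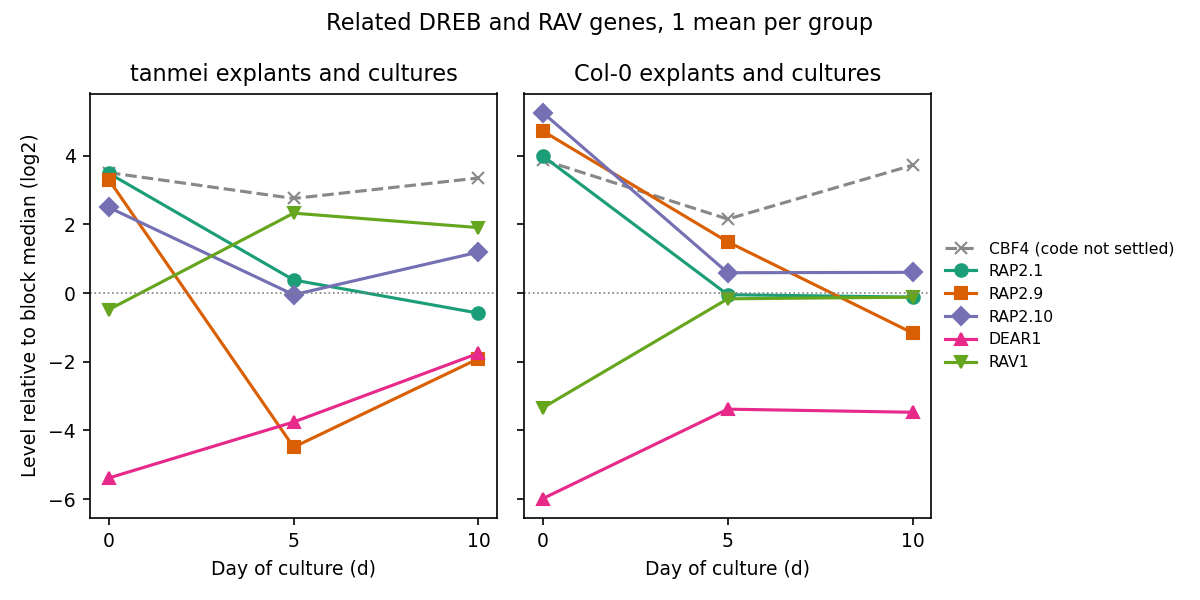
Level relative to the block median (log2, y axis) at 0, 5 and 10 d (x axis) of CBF4, whose code is not settled (dashed), of 4 DREB A-5 genes and of RAV1, tanmei in the left panel and Col-0 in the right, 1 mean per point. RAP2.1 and RAP2.10 drop after 0 d while DEAR1 and RAV1 climb in both genotypes.

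RAV1, an AP2/B3 gene known to respond to cold together with the CBF genes, had levels of -0.48, 2.33 and 1.91 in tanmei and of -3.34, -0.17 and -0.12 in Col-0. It was more than 2-fold higher in each culture than in the explant of the same genotype, and its level in tanmei exceeded that in Col-0 by 2.86, 2.50 and 2.03 on the log2 scale at 0, 5 and 10 d. Among the 6 other early cold TF genes, RAV1 included, 4 were higher and 1 lower at 5 d in tanmei, and 4 higher and 1 lower in Col-0, where 28.7% and 28.9% of all rows were higher. Only RAV1, 1 of the 5 tabulated codes of this list, met the limit of the code check. For RAV1, 4 rows of the block met it, its own being the closest. Of 12 genes listed as upstream activators, among them ICE1, the CAMTA genes and CCA1, 5 were higher and 3 lower at 5 d in tanmei, and 5 higher and 2 lower in Col-0. Of the listed upstream repressors, 2 of 5 measured were higher and 2 lower in tanmei, and 3 of 6 higher and 1 lower in Col-0. Of all rows, 28.7% were higher and 39.4% lower at 5 d in tanmei, and 28.9% higher and 38% lower in Col-0, so that counts in lists this short do not set either list apart. For the activators, 0 of the 2 tabulated codes met the limit of the code check, and likewise 0 of 2 for the repressors, so that their values are not given gene by gene.

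The tissue labels were read against ABI3, FUS3, LEC2 and LEC1, regulators of embryo development. The ABI3 row met the limit of the code check, and the codes of FUS3, LEC2 and LEC1 were not in that table. Of the tabulated codes of the same family within 10 rows, 2 of 2 met the limit around FUS3 and 2 of 2 around LEC2. Near LEC1 there were 0 such codes, so its row could not be checked, and none of these codes is settled. ABI3 levels were 5.83, -0.50 and -5.69 at 0, 5 and 10 d in tanmei and 8.24, 6.46 and 4.87 in Col-0. The level was thus above the block median in both explants and in the Col-0 cultures, and below it in the tanmei cultures. At 5 d and 10 d against 0 d, the row coded FUS3 had log2 changes of -7.49 and -9.73 in tanmei and of -0.93 and -2.89 in Col-0, and that coded LEC2 of -5.67 and -6.50 in tanmei and of 0.06 and -0.27 in Col-0. The row coded LEC1 did not follow them, with -0.42 and 0.39 in tanmei and -0.24 and -0.16 in Col-0. The part of these genes in the genotype differences of the CBF/DREB1 genes was not tested.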

How the data were processed

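The screen measured 1880 rows (1872 codes) by SYBR Green real-time RT-PCR in the 6 groups, with Ct read at a fixed fluorescence threshold. The authors deposited 1 mean Ct per row and group, the average of 3 replicates per the file header. A second deposited table, of the authors' own fold changes, was not used, and neither was the reference gene. Rows without a Ct were set to 40, and a comparison covers rows with a Ct in at least 1 of its groups. Levels were taken relative to the median of each of 5 blocks of equal length. A row was called when it differed by 2-fold or more, with 10-fold beside it. With 1 mean per group no test was possible. The steps were tested on simulated data with known changes. Most simulated rows were unchanged, whereas 67% of rows passed 2-fold in Col-0 at 5 d against 0 d. A block median moved by many changed rows was therefore not tested. Python 3.11.15, numpy 2.4.6 and pandas 2.3.3 were used. Members and gene lists were chosen with earlier results of these data known. Besides the members, up to 4 genes of a list were named by their roles, and the 3 nearest profiles of each member. The code check was set after the values were seen, and its limit was chosen then. Gene names and neighbours came from the RefSeq table, which matched 1873 of 1880 rows. No coordinates are given, since no build is named in the sources used here. Alternatives were other reference levels, a Ct limit of 35, the 10-fold threshold and other measures of likeness.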

Additional observations from a re-analysis of the deposited data

Results flagged for a closer look

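For 2 changes the genotypes ran opposite ways. CBF3 at 10 d against 0 d had a log2 change of -3.05 in tanmei and of 0.58 in Col-0, a difference of -3.64. DDF1 at 10 d against 5 d had a log2 change of 0.09 in tanmei and of -1.26 in Col-0, a difference of 1.35. With 1 mean per group, neither difference was tested. In the Ct as deposited the DDF1 changes were -0.07 in tanmei and -0.42 in Col-0, so that they no longer ran opposite ways, whereas those of CBF3 still did, at -3.28 in tanmei and 2.48 in Col-0.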

How the results depend on the processing

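With 1 mean per group there was no replicate to leave out. No paired analysis was possible because each group has 1 value per gene. Of 60 recounts of the genes called, 50 stayed within 1.5 times. Raising the threshold to 10-fold lowered the count to 2 for tanmei at 10 d against 0 d, to 0 for tanmei at 10 d against 5 d and to 2 for Col-0 at 10 d against 5 d, and for tanmei against Col-0 to 0, 1 and 2 at 0, 5 and 10 d. For the tanmei change minus the Col-0 change it became 2 (5 d minus 0 d), 3 (10 d minus 0 d) and 1 (10 d minus 5 d). In the Ct as deposited, 1 gene in place of 2 was called between the explants, and the tanmei minus Col-0 difference of change of CBF1 at 10 d against 0 d reversed, to -0.93 in place of 1.20. Of 240 recomputed changes of single genes, 210 kept their direction and their side of 2-fold, 11 dropped below it, 9 passed it and 10 changed sign, 1 of them with a call. The split of all rows moved with the scale. The shares lower and higher at 5 d against 0 d in Col-0 were 38% and 28.9% relative to the block median, and 28.1% and 35.7% in the Ct as deposited. At 10 d against 0 d in Col-0 they were 41.1% and 29%, against 21.9% and 43.1%. Between tanmei and Col-0 at 0 d they were 22% and 24.6%, against 11.9% and 44.5%, and at 10 d 22.4% and 28.7%, against 37.6% and 15.5%. The tanmei change minus the Col-0 change moved most, from 27.4% lower and 24.8% higher to 52.1% and 13.2% (5 d minus 0 d), from 27.1% and 30.3% to 61.8% and 12.1% (10 d minus 0 d), and from 20.5% and 23.2% to 31.3% and 13.9% (10 d minus 5 d). The median log2 change of all rows was -0.37 at 5 d and -0.37 at 10 d in Col-0 relative to the block median, and 0.14 and 0.60 in the Ct as deposited. Ranking likeness by Pearson's r kept 1 of 3 nearest rows for CBF1, 1 of 3 for CBF2 and 0 of 3 for CBF3, DDF1 and DDF2. The DDF2 values in the Col-0 cultures are the ones a Ct limit of 35 touches, and depth in the sense of counts does not exist for Ct values.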
